A study of Mus musculus with 8 samples.

Results

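The cytosolic ribosomal protein genes encode the proteins of the ribosome that translates nuclear mRNAs. Each protein joins ribosomal RNA in either the large (Rpl) or the small (Rps) subunit, and the cell makes them in matched amounts. Their mRNAs begin with a short tract of pyrimidines, the terminal oligopyrimidine (TOP) motif, through which mTOR signalling controls their translation. The genes are highly expressed in growing cells, and mammalian genomes hold many intronless copies of them, the processed pseudogenes, most of which are not thought to make protein. Members were taken by their names, as protein-coding genes called Rpl or Rps with a number, Rplp0, Rplp1, Rplp2 or Rpsa. This gave 83 of the 53697 genes listed, 52 of the large and 31 of the small subunit, and 80 of the 83 passed the filter on low counts. Rpl3l, Rpl10l and Rpl39l did not pass it. Some genes that also encode ribosomal proteins, such as Rps3a1 and Fau, lie outside the name rule and were followed beside the members.

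RNA was sequenced from tumor cells of 4 MMTV-PyMT mice on a C57BL/6 background, a model in which the MMTV promoter drives the polyoma middle T oncogene in mammary epithelium. All libraries were of lineage-negative cells, from which CD45+, CD31+ and Ter119+ cells had been sorted out. In 2 PyMT-Dll1GFP mice the Notch ligand gene Dll1 carries a GFP-IRES-CreERT2 knock-in, and in 2 PyMT-Dll1mCh mice mCherry is expressed from a Dll1 BAC transgene. Reporter-positive (Dll1+) and reporter-negative (Dll1-) tumor cells of each mouse gave 1 library each, so that the 4 groups held 2 libraries each and every comparison of Dll1 status was made within mice. The mice's age was not given in the sources used here. Line, reporter construct and individual tumors cannot be told apart in a comparison of PyMT-Dll1mCh with PyMT-Dll1GFP, which has 2 mice on each side.

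The copies matter for every value below, because reads of a gene and of a copy with the same letters cannot be told apart. A search of the annotated transcripts by sequence found 1100 copies that matched with at least 90% identity over at least 70% of the copy, and 80 of the 83 members had a copy. Of these copies, 1086 belonged to members and 14 to ribosomal protein genes outside the name rule. Only 223 carried their parent's name, whereas 282 pseudogenes in the whole table were named for a ribosomal protein gene. Among 65 copies with a mean of at least 2000 counts per library, 25 were identical to their parent over more than 95% of their length, and these 65 held 96.8% of the counts on copies. Sequences below are from the GENCODE transcripts on GRCm38, 5′ to 3′, as 60-base stretches of coding sequence with capitals at the bases that differ between a gene and its pseudogene.

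Rps27 and its main copies are shown because the counts on Rps27 itself ranged from 109 to 19911 between libraries. The stretch is bases 15 to 74 of the Rps27 coding sequence (chr3:90213234-90213293, minus strand, exonic). It is set beside that of Rps27rt, a single-exon gene annotated as protein coding (chr9:114982634-114982693, minus strand), and that of the processed pseudogene Gm17241 (chr15:99706740-99706799, minus strand). Over the 252 coding bases, Rps27rt had 0 mismatches to Rps27 and is printed in lower case throughout, and Gm17241 had 2.
Rps27: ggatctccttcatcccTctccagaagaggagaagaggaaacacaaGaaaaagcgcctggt
Rps27rt: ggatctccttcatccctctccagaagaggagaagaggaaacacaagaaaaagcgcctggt
Gm17241: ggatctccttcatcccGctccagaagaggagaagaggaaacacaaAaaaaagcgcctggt

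Rpl35a is shown because it went against the other members between the reporters. Bases 126 to 185 of its coding sequence (chr16:33057504-33058699, plus strand, exonic on both sides of an intron) hold the 1 mismatch in 330 coding bases between it and Rpl35a-ps2 (chr1:181242136-181242195, minus strand).
Rpl35a: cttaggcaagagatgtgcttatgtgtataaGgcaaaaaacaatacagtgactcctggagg
Rpl35a-ps2: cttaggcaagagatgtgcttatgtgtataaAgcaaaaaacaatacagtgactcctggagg

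Rpl5 is an example with no mismatch at all over 891 coding bases. Its first 60 coding bases (chr5:107900644-107901926, plus strand, exonic on both sides of an intron) stand beside those of Gm15500 (chr7:114706104-114706163, minus strand), the pseudogene with the most counts of all copies.
Rpl5: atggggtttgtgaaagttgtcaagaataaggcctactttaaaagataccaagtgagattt
Gm15500: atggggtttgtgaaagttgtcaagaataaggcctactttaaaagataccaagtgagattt

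The libraries held between 27301396 and 123907626 counts, of which the 83 members took 2.61% to 5.68% and the copies 1.41% to 2.78%. Dll1 checked the sort, at 7.61 to 50.3 CPM (counts scaled to a common library size with TMM factors) in the 4 Dll1- and 87.5 to 250 CPM in the 4 Dll1+ libraries, with no overlap. The epithelial marker Epcam was at 899 to 1240 CPM in all 8. Markers of other cell types were higher in PyMT-Dll1mCh than in PyMT-Dll1GFP libraries, and fibroblasts and pericytes were not among the cells sorted out. In Dll1- cells the 10 fibroblast or pericyte markers summed to 1102 and 1244 CPM in PyMT-Dll1GFP but 7938 and 22119 CPM in PyMT-Dll1mCh mice, and all 10 rose (edgeR, adjusted p under the 0.05 threshold). The immune markers summed to 121 to 139 CPM in the PyMT-Dll1GFP and 349 to 791 CPM in the PyMT-Dll1mCh libraries, and Ptprc, which encodes CD45, was at 2.88 to 4.39 and 5.32 to 12.7 CPM. The 7 endothelial markers summed to 45.7 to 50.8 CPM and 80.8 to 336 CPM, and no library was at 0 for Pecam1, which encodes CD31. In bulk libraries such as these, fewer cells of a type and less RNA per cell cannot be told apart.

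**Figure D1:**
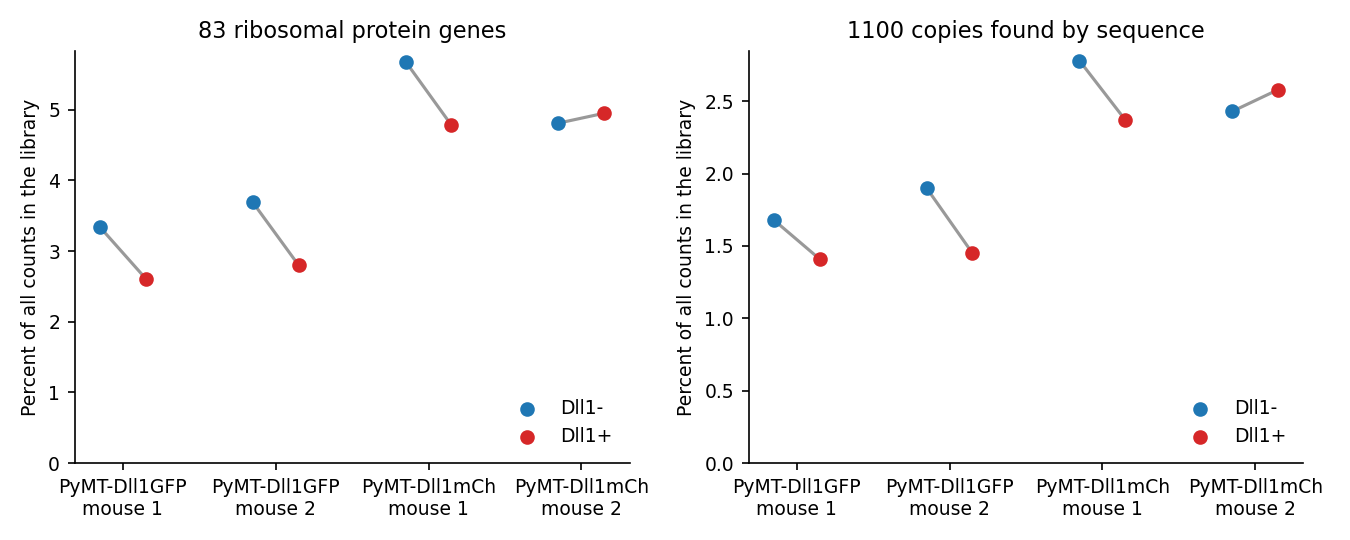
Percent of each library's counts on the 83 ribosomal protein genes (left) and on the 1100 copies found by sequence (right), with lines joining the Dll1- (blue) and Dll1+ (red) library of a mouse. Both shares were higher in the PyMT-Dll1mCh mice, and in PyMT-Dll1mCh mouse 2 alone they did not fall from Dll1- to Dll1+ cells.

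Per length, the levels of the members as listed spread widely. Over the 76 members tested that are not paralogs, the median over 8 libraries was 315 CPM per kb of the longest transcript, and the 90th percentile was 14.4 times the 10th. Adding the counts of the copies to their parents narrowed this ratio to 5.39, at a median of 683 CPM per kb. Rplp1, one of the acidic proteins of the stalk that recruits elongation factors, had the highest level per length at 2250 CPM per kb. Rps4x at 1568, Rpl19 at 1552, Rpl23a at 1476 and Rps15 at 1406 CPM per kb followed. The order depended on the length used. Per kb of the union of exons the median was 209, and Rplp1 was again highest at 2250 CPM per kb. By that length Rps15, Rpl19, Rpl23a and Rps4x stood at 1277, 1140, 1025 and 938 CPM per kb, and Rpl36 and Rplp0 at 1110 and 1093. The lowest 5 were Rps27 at 12.2, Rps12 at 17.6, Rpl12 at 22.7, Rpl5 at 23.2 and Rpl35a at 39.8 CPM per kb. With their copies Rps27 and Rps12 stood at 893 and 514 CPM per kb. The tissue-restricted paralogs were nearly absent. Rpl3l, known from heart and skeletal muscle, had 25 counts over all 8 libraries, Rpl39l had 126 and the testis gene Rpl10l had 3, where 3 counts in a library correspond to 0.024 to 0.105 CPM.

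For 31 members less than 50% of the counts of the gene and its copies were on the gene itself, and the median over the 80 tested members was 70.1%. Rps12 kept 3.47%, Rpl5 3.86%, Rpl10 5.67% and Rpl12 6.84%. The copies Gm15500 (of Rpl5), Rpl3-ps1, Rps2-ps10, Gm10275 (of Rpl12) and Rps6-ps4 were the 5 with the most counts among those annotated as pseudogenes, with library means of 61217, 58638, 53537, 42317 and 41970. Rpl10-ps3, a copy annotated as protein coding, had a mean of 49963. Gm15500 alone was thus listed at 733 to 1432 CPM, against 41 to 54.2 CPM for Rpl5, whose protein forms a complex with Rpl11 and 5S rRNA that binds Mdm2. The share of counts on copies differed little between libraries, at 32.8% to 35.0% of the members and copies together.

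Between Dll1+ and Dll1- cells the members moved little and mostly downwards, and 1 of them passed the test. Over 4 mice 0 of 80 rose and 1 fell, where 6.98% of 18322 genes rose and 7.04% fell. The members' median log2 fold change was -0.17 (-0.001 over all genes tested), 74 of the 80 estimates were negative, and 25 were lower and 0 higher at an unadjusted p under 0.05. The share of all genes at that unadjusted threshold is not reported here. Counts of members at it, here and below, are therefore descriptions without a background. The share of counts on the members fell by 0.597 percentage points on average from Dll1- to Dll1+ cells (SD 0.496, n = 4 mice), with an exact two-sided permutation p of 0.25, where 4 pairs cannot go below 0.125.

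That share was 3.34% in Dll1- and 2.61% in Dll1+ cells of PyMT-Dll1GFP mouse 1, and 3.69% and 2.80% in mouse 2. It was 5.68% and 4.78% in PyMT-Dll1mCh mouse 1 and 4.81% and 4.95% in mouse 2. The Dll1+ library thus had 0.781, 0.760 and 0.840 of the Dll1- share in the first 3 mice and 1.03 in PyMT-Dll1mCh mouse 2. Gene by gene the mice compared as follows. The median log2 difference was -0.31 with 77 of 80 lower in PyMT-Dll1GFP mouse 1, -0.27 with 77 lower in mouse 2, and -0.20 with 75 lower in PyMT-Dll1mCh mouse 1. In PyMT-Dll1mCh mouse 2 it was 0.10, with 57 higher and 23 lower. Over all 18322 genes tested the medians were -0.023, 0.007, 0.001 and 0.044 in the same order of mice. In PyMT-Dll1mCh mouse 2, 10069 of all genes were higher and 8238 lower. Members lower in the first 3 mice and higher in that mouse numbered 52, those lower in all 4 mice 21, and none was higher in all 4.

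**Figure D2:**
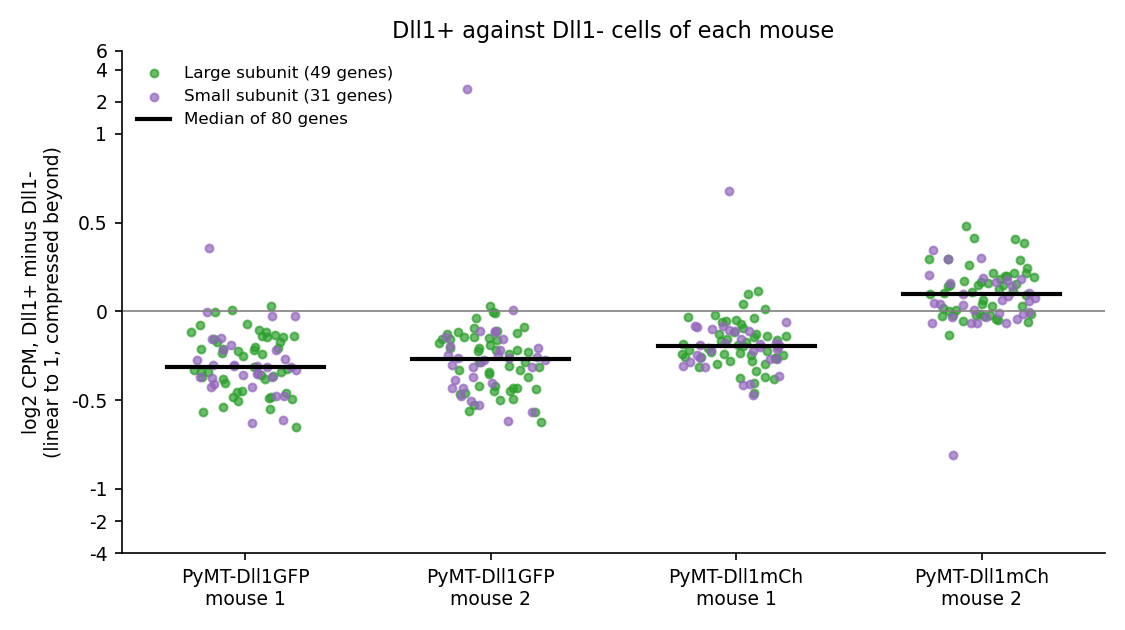
Log2 CPM of Dll1+ minus Dll1- cells for each of the 80 tested ribosomal protein genes in each of 4 mice, by subunit, with black bars at the median. The medians were -0.31, -0.27, -0.20 and 0.10 from left to right, and the gene far from the others in PyMT-Dll1GFP mouse 2 is Rps27 at 2.62. Over all genes tested the medians were -0.023, 0.007, 0.001 and 0.044.

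The count of calls over 4 mice changed with the mouse left out and with the tool. Without that mouse 24 of 80 members fell and 0 rose (7.43% of all genes fell), with a median of -0.26. Without PyMT-Dll1GFP mouse 1, PyMT-Dll1GFP mouse 2 or PyMT-Dll1mCh mouse 1 edgeR called no member, with medians of -0.12, -0.12 and -0.16. At an unadjusted p under 0.05, 3, 3 and 5 members were then lower. Over the whole table these fits called 433, 779 and 405 genes, against 2568 with 4 mice and 2400 without PyMT-Dll1mCh mouse 2. DESeq2 on all 8 libraries gave 25 lower and 0 higher members, where 13.5% of all genes fell.

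Rps27l was the member called over 4 mice, a paralog of Rps27 that p53 is known to induce. It was at 109, 128, 207 and 149 CPM in the Dll1- cells of PyMT-Dll1GFP mice 1 and 2 and PyMT-Dll1mCh mice 1 and 2, and at 85.5, 91.8, 156 and 142 CPM in their Dll1+ cells. It was lower in 4 of 4 mice, and least so in the last. The log2 fold change was -0.32 (SE 0.08, edgeR adjusted p = 0.0495), just under the threshold. Over 13 other settings its adjusted p ranged from 0.00214 to 0.773, and 6 of them lost the call, among them those without PyMT-Dll1GFP mouse 1 (0.15), PyMT-Dll1GFP mouse 2 (0.143) or PyMT-Dll1mCh mouse 1 (0.172). Rpsa, the small-subunit protein also known as the laminin receptor, had the largest negative estimate at -0.38 (SE 0.11, adjusted p = 0.0656). Its levels in Dll1- and Dll1+ cells were 1208 and 870 CPM, and 1367 and 922 CPM, in the PyMT-Dll1GFP mice. They were 2308 and 1741 CPM in PyMT-Dll1mCh mouse 1 and 2009 and 1916 CPM in mouse 2.

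In the PyMT-Dll1GFP mice 4 of 80 members fell and 0 rose, where 4.84% of all genes fell, and the median was -0.28 with 79 of 80 estimates negative. Among them were Rps26 and Rps20 of the small and Rpl31 of the large subunit. With the counts of the copies added, Rps20 kept its call (adjusted p = 0.0426), and Rps26 (-0.45, adjusted p = 0.0844) and Rpl31 (-0.34, adjusted p = 0.0841) did not. Rps26 went from 295 to 194 CPM in mouse 1 and from 317 to 236 CPM in mouse 2, the 2 groups not overlapping, which gave -0.52 on the log2 scale (SE 0.11, adjusted p = 0.0337). Rps20 went from 204 to 158 and from 247 to 161 CPM, at -0.50 (SE 0.11, adjusted p = 0.0394). Rpl31, which lines the exit of the nascent chain, went from 172 to 138 and from 199 to 146 CPM, at -0.38 (adjusted p = 0.0481). In the same mice 42 members were lower at an unadjusted p under 0.05. DESeq2 called 24 members lower in these mice, where 6.61% of all genes fell. Without PyMT-Dll1GFP mouse 1 or mouse 2, which leaves a single mouse of this line, the members' median was -0.27 or -0.31. Without PyMT-Dll1mCh mouse 1 or mouse 2 the members' median in the PyMT-Dll1GFP mice was -0.27 in both fits.

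In the PyMT-Dll1mCh mice 0 of 80 members were called by edgeR or DESeq2, where edgeR called 11.8% of all genes. In edgeR 0 members had an unadjusted p under 0.05. The spread in that fit was estimated over all 8 libraries of both lines. With the libraries of this line fitted alone, edgeR called 0 genes in the whole table, and the members' median was -0.06. In the fit of all 8 libraries the median was -0.04, with 51 negative and 29 positive estimates. Without mouse 1 or mouse 2 of this line the median was 0.08 or -0.22. The members with the lowest p were Rps27l, Rpl22l1, Rpsa, Rpl41 and Rps2. Rpl22l1, which can replace Rpl22, was the one of them with a positive estimate (0.26, SE 0.11, adjusted p = 0.184), at 132 and 124 CPM in Dll1- and 143 and 165 CPM in Dll1+ cells. Rpl41, which encodes the shortest ribosomal protein, was at 1277 and 929 CPM in mouse 1 and at 997 and 955 CPM in mouse 2 (-0.26, adjusted p = 0.277).

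The difference of the Dll1 effects between the reporters was tested directly, and 0 of 80 members passed in edgeR or DESeq2, where 0.0710% of all genes did in edgeR. The median difference was -0.25 on the log2 scale, with 79 of 80 estimates more negative in PyMT-Dll1GFP mice, and 5 members had an unadjusted p under 0.05. Without PyMT-Dll1mCh mouse 1 the median difference was -0.36, and without PyMT-Dll1mCh mouse 2 it was -0.05. The SD between mice of the members' median was 0.208 on the log2 scale for that line and 0.031 for PyMT-Dll1GFP.

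Other lists moved with Dll1 status in the same libraries. Over 4 mice 6.98% of all genes rose and 7.04% fell, and in the PyMT-Dll1mCh mice 11.8% were called in either direction. All 21 genes of a list of division and replication genes fell over 4 mice, with a median of -1.05, and all 21 were lower in PyMT-Dll1mCh mouse 2 as well, with a median of -0.76. Mki67, a marker of dividing cells, was at 153 to 202 CPM in Dll1- and 58.2 to 89.6 CPM in Dll1+ cells. Basal or myoepithelial markers mostly moved the other way, with 5 of 11 rising over 4 mice and a median of 1.08. In PyMT-Dll1mCh mouse 2, 7 of the 11 were higher and 4 lower. The summed CPM of these basal markers was 163 to 838 in Dll1- and 257 to 1677 in Dll1+ cells. Of 16 genes of dissociation and immediate early response, 9 rose, at a median of 0.56. In the PyMT-Dll1mCh mice 7 of 10 fibroblast and 8 of 9 immune markers fell from Dll1- to Dll1+ cells, at medians of -2.38 and -1.14, and in the PyMT-Dll1GFP mice 0 of either list were called. The part of these lists in the members' levels was not tested.

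Between the reporter lines nearly all members were called. In Dll1- cells 71 of 80 were higher in PyMT-Dll1mCh mice and 1 lower, where 18.7% of all genes were higher and 17.9% lower. The median log2 fold change was 0.65, or 1.57-fold (0.01 over all genes). In Dll1+ cells 74 were higher and 1 lower, where 15.2% of all genes were higher and 15.4% lower, at a median of 0.91, or 1.88-fold (0.07 over all genes). In 74 of 80 members all 4 PyMT-Dll1mCh libraries lay above all 4 PyMT-Dll1GFP libraries, which held for 21.5% of all genes. The share of counts on the members was 3.51% ± 0.245 (SD, n = 2) against 5.25% ± 0.616 in Dll1- cells, and 2.71% ± 0.136 against 4.86% ± 0.124 in Dll1+ cells. With 2 mice a side an exact permutation test cannot go below 0.333, the value it gave in both.

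These calls needed both PyMT-Dll1GFP mice. Without mouse 1 or mouse 2 of that line edgeR called no gene in the whole table, although the members' medians were 0.58 and 0.70 in Dll1- and 0.82 and 0.94 in Dll1+ cells. At an unadjusted p under 0.05, 54 and 67 of 81 members were then higher in Dll1- cells and 73 and 73 in Dll1+ cells. Without PyMT-Dll1mCh mouse 1 or mouse 2 the members' medians were 0.56 and 0.78 in Dll1- and 0.93 and 0.83 in Dll1+ cells. The fibroblast, immune and endothelial markers given above also rose in PyMT-Dll1mCh mice, as did 17 of the 21 division genes in Dll1- and 18 in Dll1+ cells, at medians of 0.71 and 0.95. Their part in the members' rise was not tested. In Dll1- cells PyMT-Dll1mCh mouse 2 had the higher fibroblast sum of the 2 mice, 22119 against 7938 CPM, and the lower share of counts on the members, 4.81% against 5.68%.

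Single members show the size of this difference. Rplp0, the scaffold of the stalk, was at 1512, 1576, 1099 and 1235 CPM in the PyMT-Dll1GFP libraries (Dll1- of mice 1 and 2, then Dll1+) and at 2485, 2250, 2050 and 2227 CPM in the PyMT-Dll1mCh libraries. Its log2 fold change was 0.62 in Dll1- (SE 0.13, adjusted p = 0.0111) and 0.87 in Dll1+ cells (SE 0.13, adjusted p = 0.00607). Its partners Rplp1 and Rplp2 rose by 0.72 and 0.65 in Dll1- and by 1.03 and 1.01 in Dll1+ cells. Rps6, the substrate of S6 kinase, was at 230, 266, 202 and 214 CPM against 422, 392, 390 and 408 CPM, with 0.71 and 0.94 (adjusted p = 0.00455 and 0.00412). Rpl11, the partner of Rpl5, was at 256, 271, 222 and 237 CPM against 462, 402, 387 and 433 CPM, with 0.71 and 0.84 (adjusted p = 0.00528 and 0.00562). For Rplp0, Rps6 and Rpl11 the lowest PyMT-Dll1mCh library exceeded the highest PyMT-Dll1GFP library.

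The subunits had near-equal medians. The 49 tested large-subunit members had a median log2 fold change of 0.65 in Dll1- and 0.90 in Dll1+ cells, and the 31 small-subunit members 0.65 and 0.93. For Dll1 status over 4 mice the medians were -0.16 and -0.17. Among the paralogs, all 4 tested were higher in PyMT-Dll1mCh mice in both cell types. Rpl22l1 rose by 0.48 and 0.88 on the log2 scale, and Rpl22 itself by 0.54 in Dll1+ cells, with 0.35 (adjusted p = 0.0633) in Dll1- cells. Rps27l rose by 0.59 and 0.75, and Rpl7l1, a relative of Rpl7 with a role in ribosome assembly, by 0.48 and 0.47, against 0.51 and 0.82 for Rpl7. Rpl36al, an autosomal relative of the X-linked Rpl36a, rose by 0.67 and 0.75, and Rpl36a by 0.61 and 0.87. Rpl39, an X-linked gene of the exit tunnel, rose by 0.64 and 0.94, Rps4x by 0.60 and 0.83, and Rpl3 by 0.51 and 0.72.

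In Dll1- cells 8 members did not pass the test, and 7 of them, as well as the 1 lower member, had under 50% of the counts of gene and copies on the gene. The other was Rpl22, at 99.9%. Rpl35a was lower in PyMT-Dll1mCh mice, at 141, 158, 128 and 135 CPM in the PyMT-Dll1GFP and 99.5, 72.9, 78.9 and 80.9 CPM in the PyMT-Dll1mCh libraries, with no overlap. Its log2 fold change was -0.79 in Dll1- and -0.72 in Dll1+ cells (adjusted p = 0.00861 and 0.0156). Rpl10, which joins the large subunit last, stood at 95.9 to 118 CPM against 77.1 to 108 CPM (-0.50 and -0.17, adjusted p = 0.0535 and 0.467). Rpl5 was at 41 to 47.7 against 46.7 to 54.2 CPM and Rpl12, a protein at the base of the stalk, at 52.0 to 69.5 against 55.1 to 85.4 CPM, neither called in either cell type. Rps2, at 204 to 274 against 733 to 1014 CPM, rose by 1.85 and 1.87, and with its copies by 0.92 and 0.95. Rps27 had 109, 141, 137 and 1353 counts in the PyMT-Dll1GFP libraries and 19911, 317, 16714 and 332 in the PyMT-Dll1mCh libraries, high in both libraries of mouse 1 and low in both of mouse 2, and was not called.

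**Figure D3:**
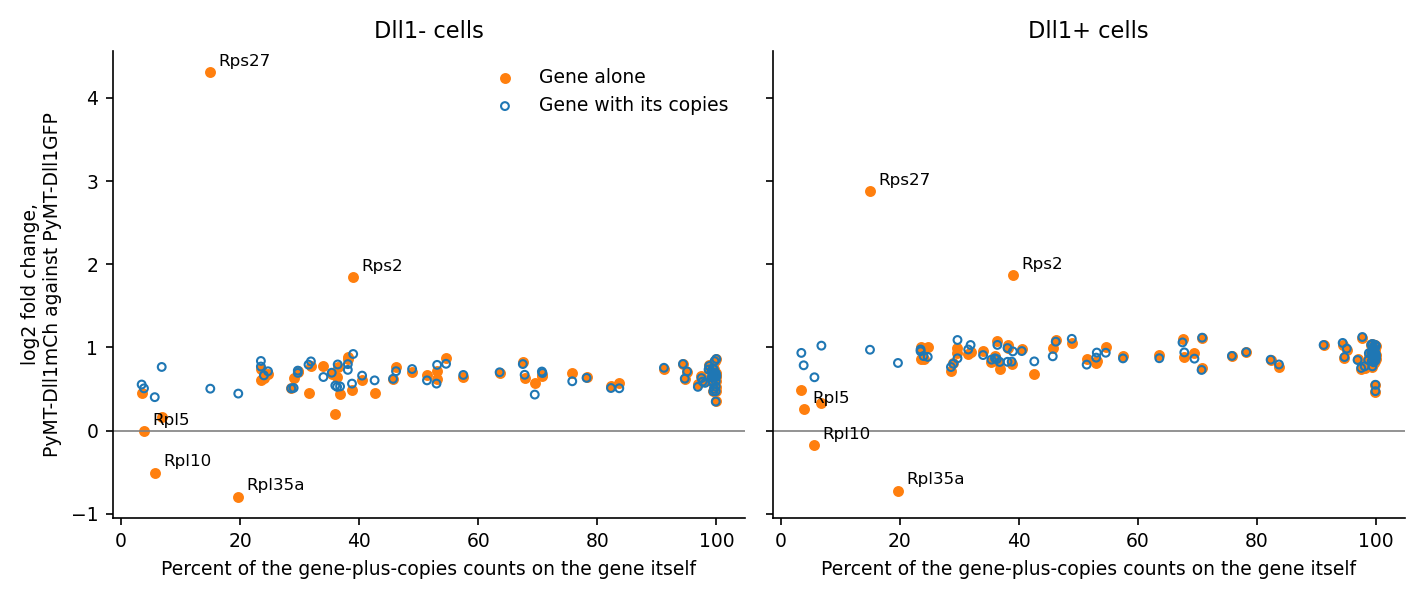
Log2 fold change of PyMT-Dll1mCh against PyMT-Dll1GFP for 80 ribosomal protein genes in Dll1- (left) and Dll1+ cells (right), against the percent of the counts of gene and copies that is on the gene itself. Filled points are the gene alone, and open circles the gene with its copies, which lie between 0.35 and 0.92 on the left and 0.47 and 1.13 on the right.

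With the counts of the copies added to their parents, 78 of 80 members were higher in Dll1- cells (19.2% of all genes) and 80 of 80 in Dll1+ cells (16.1% of all genes), and none was lower. The SD over the 80 log2 fold changes narrowed from 0.503 to 0.117 in Dll1- and from 0.366 to 0.115 in Dll1+ cells, while the medians were 0.66 and 0.90. For the 49 members with most counts on the gene itself it was 0.101 and 0.125 without any addition. All 80 had the PyMT-Dll1mCh libraries above the PyMT-Dll1GFP libraries, which held for 21.8% of all genes in that table. Rpl35a with its copies was at 335 to 438 against 503 to 637 CPM and turned from lower to higher (0.45 and 0.81, adjusted p = 0.0433 and 0.00876). Rpl10 with its copies was at 1194 to 1424 against 1734 to 1994 CPM (0.40 and 0.64), Rpl5 at 787 to 1056 against 1296 to 1499 CPM (0.51 and 0.79) and Rps27 at 405 to 530 against 670 to 874 CPM (0.51 and 0.97). The members not called with copies in Dll1- cells were Rpl22 (0.35, adjusted p = 0.0625) and Rps26 (0.43, adjusted p = 0.0641).

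How the counts were split between a gene and its copies followed the reporter line for some families. Of the counts of Rpl35a and its copies, 35.6% to 38.4% were on Rpl35a in the 4 PyMT-Dll1GFP libraries and 12.8% to 15.8% in the 4 PyMT-Dll1mCh libraries, and nearly all others were on Rpl35a-ps2. For Rps2 the split was the reverse, with 22.5% to 23.3% on the gene in PyMT-Dll1GFP and 41.3% to 45.3% in PyMT-Dll1mCh libraries, against Rps2-ps10. In both families the lines did not overlap. For Rps27 the split differed between libraries of a line, from 0.874% to 7.42% in PyMT-Dll1GFP mice, and was 23.7% and 33.5% in PyMT-Dll1mCh mouse 1 against 1.54% and 0.686% in mouse 2. The cause of these splits was not tested.

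**Figure D4:**
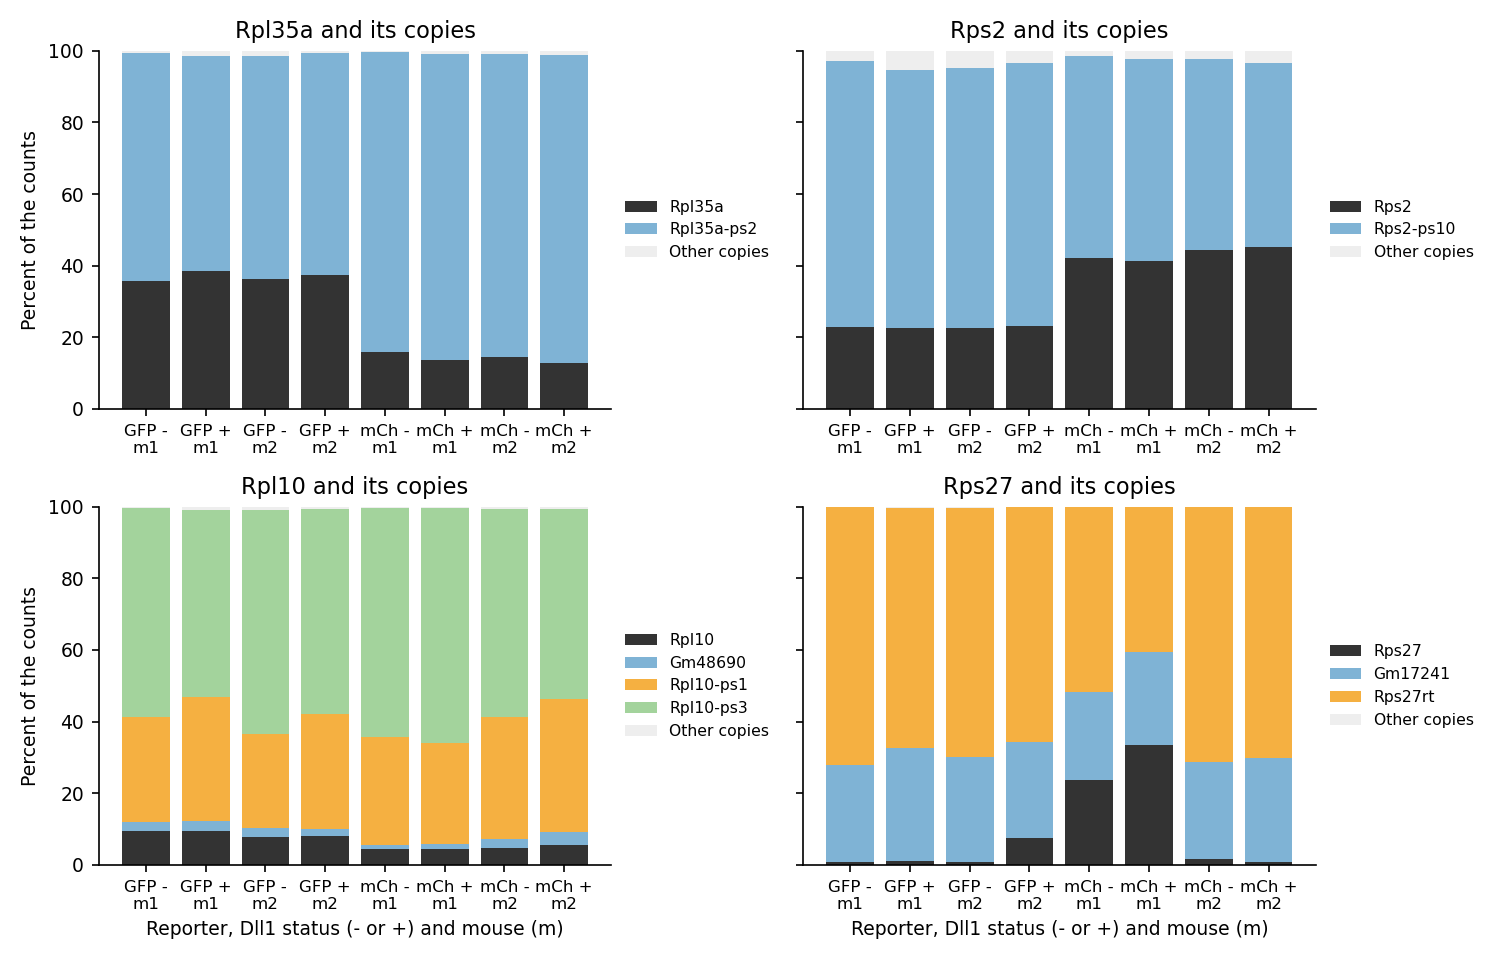
Percent of the counts of a ribosomal protein gene and its copies that each took, in 8 libraries (GFP, PyMT-Dll1GFP; mCh, PyMT-Dll1mCh; m1 and m2, mice 1 and 2), for 4 families. The black share of Rpl35a was at least 35.6% in PyMT-Dll1GFP and at most 15.8% in PyMT-Dll1mCh libraries, and that of Rps2 at most 23.3% and at least 41.3%, while that of Rps27 was high in PyMT-Dll1mCh mouse 1 alone.

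The copies were also tested as genes of their own. Of the 1100, 1003 had 3 or more counts in some library and 486 were tested. In Dll1+ against Dll1- cells over 4 mice 1 rose and 2 fell, where 6.98% of all genes rose and 7.04% fell. The median over the 486 was 0.26, in which copies with few counts weigh as much as the others. The 65 copies with at least 2000 counts on average held 96.8% of the counts on copies. Their median was -0.14, with 0 higher and 1 lower, and by mouse it was -0.22, -0.28, -0.17 and 0.10. Between the lines 48 and 56 of these 65 were higher in PyMT-Dll1mCh mice in Dll1- and Dll1+ cells, and none was lower. Their medians were 0.69 and 0.88, and 18.7% and 15.2% of all genes were higher.

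Other genes of ribosome synthesis gave the members a frame. Of the ribosomal proteins outside the name rule, 0 of 4 were called for Dll1 status (median -0.15), and all 4, among them Rps3a1, Fau and Rack1, a ribosome-bound scaffold, were higher in PyMT-Dll1mCh mice (medians 0.66 and 0.88). Of 25 other TOP genes, mostly translation factors, 2 fell with Dll1 status over 4 mice, where 7.04% of all genes fell. Their median was -0.16. The assembly chaperone Nap1l1 was one of them (-0.49, adjusted p = 0.0338), at 185 and 191 CPM in Dll1- and 125 and 118 CPM in Dll1+ cells of PyMT-Dll1GFP mice, and 278 and 285 against 184 and 262 CPM in PyMT-Dll1mCh mice. Of these 25, 11 and 17 were higher in PyMT-Dll1mCh mice in Dll1- and Dll1+ cells, at medians of 0.37 and 0.65. Of all genes 18.7% and 15.2% were higher there. By mouse their Dll1 medians were -0.29, -0.25, -0.15 and 0.09.

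Ribosome assembly genes that were called for Dll1 status over 4 mice mostly fell. For each list below the background over 4 mice is 7.04% of all genes that fell and 6.98% that rose. Of 45 genes of rRNA transcription and ribosome biogenesis, 10 fell and 1 rose over 4 mice, at a median of -0.23. In PyMT-Dll1mCh mouse 2 alone, 24 were lower and 21 higher. Between the lines 9 and 13 were higher and 2 and 3 lower in PyMT-Dll1mCh mice, in Dll1- and Dll1+ cells. Of all genes 18.7% and 15.2% were higher and 17.9% and 15.4% lower. Of the 14 chaperones and importins of ribosomal proteins, 3 fell. Of the 78 mitochondrial ribosomal proteins, which serve the separate ribosome of that organelle, 17 fell and 0 rose over 4 mice at a median of -0.19, and 51 and 47 were higher in PyMT-Dll1mCh mice (medians 0.55 and 0.52). Of 24 tested regulators of ribosomal protein synthesis, 1 fell, namely Eif4ebp1, which mTOR inhibits to free the cap-binding protein (-0.37, adjusted p = 0.0412). Whether these lists differ from the members was not tested.

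**Figure D5:**
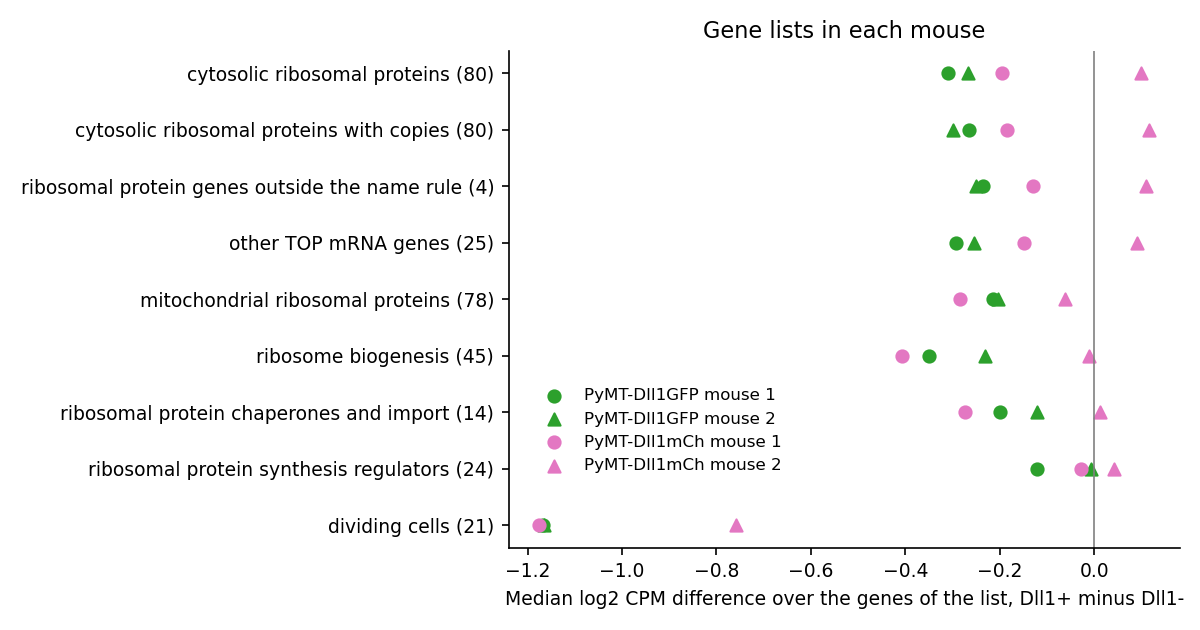
Median log2 CPM difference of Dll1+ minus Dll1- cells over the genes of 9 lists in each of 4 mice, with the number of tested genes in brackets. The members, the ribosomal proteins outside the name rule and the other TOP genes had positive medians in PyMT-Dll1mCh mouse 2, from 0.09 to 0.11, while the division genes stayed at -0.76 there. Over all genes tested the median in that mouse was 0.044.

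The TOP tract itself can be read at annotated starts. RefSeq's GRCm38 table held 75 starts for 63 of the 83 members, and a run of at least 8 pyrimidines lay between 10 bases before and 15 after the start in 23 of them (30.7%), against 9.49% of all 32851 starts and 6.67% of 75 starts of mitochondrial ribosomal proteins. RefSeq starts can lie some bases away from the main start of the mRNA, so that a missing run says only that these letters are not in this window. The 30 bases from 10 before the start are shown for 7 members named above, chosen for their roles and not as typical of all members, with any run of at least 8 pyrimidines in capitals. They lie at chr4:86857348-86857377 (minus strand) for Rps6, chr7:141447641-141447670 (plus) for Rplp2, chr10:128626487-128626516 (minus) for Rps26, chr3:90213629-90213658 (minus) for Rps27, chr3:28805498-28805527 (plus) for Rpl22l1, chr9:66946076-66946105 (plus) for Rps27l and chr4:136053374-136053403 (minus) for Rpl11. Between 10 bases before and 15 after the start, the longest run has 7 pyrimidines in Rps27l and 2 in Rpl11. The printed Rpl11 letters end in a longer pyrimidine run, of which only the first 2 bases lie in that window.
Rps6: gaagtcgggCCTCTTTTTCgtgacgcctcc
Rplp2: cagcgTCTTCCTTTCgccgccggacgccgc
Rps26: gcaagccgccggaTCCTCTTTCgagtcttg
Rps27: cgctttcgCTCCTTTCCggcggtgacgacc
Rpl22l1: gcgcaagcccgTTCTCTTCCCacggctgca
Rps27l: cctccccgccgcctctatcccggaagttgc
Rpl11: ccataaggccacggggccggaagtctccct

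The letters CTTTCC were found on the coding strand in 38.7% of the members' windows from 250 bases before to 50 after the start and in 14.1% of all, and in 20% of those of mitochondrial ribosomal proteins. CCGGAA on either strand was in 46.7% of the members', 14.9% of all and 57.3% of the mitochondrial windows. The TATA motif TATAAA on the coding strand was in 6 of the 75 windows, against 8.32% of all. These are shares of windows, and members with several starts count more than once.

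Most members followed their own median log2 CPM over the 8 libraries. That median was 7.87 to 8.32 in the PyMT-Dll1GFP and 8.73 to 8.98 in the PyMT-Dll1mCh libraries. Pearson's r of a member's log2 CPM with the members' median profile exceeded 0.9 for 74 of 80, led by Rpl7 (0.998), Rps4x (0.996), Rpl6 (0.995), Rps24 (0.995) and Rpl15 (0.995), and was lowest for Rpl35a (-0.79) and Rpl10 (-0.62). Among the other genes nearest to that profile were Gadd45gip1, Aimp1, Psmg4 and Rps3a1, with r of 0.993 to 0.995, and 1134 other genes exceeded 0.9. These are descriptions over 8 libraries from 4 mice, with a profile drawn from the members themselves and set apart by reporter line.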

How the data were processed

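RNA of 8 libraries was prepared with a stranded total RNA kit. The authors quantified reads with Salmon against GENCODE transcripts (GRCm38.p6) and summarised them per gene with tximport, and deposited whole-number estimated counts, which share reads between near-identical copies by a model. No column of the table was left unmapped (0). Groups and mice came from the labels, and each mouse gave both of its libraries, so that mouse was the pairing factor by design. Deviations of same-numbered libraries correlated at -0.047 in PyMT-Dll1GFP and 0.554 in PyMT-Dll1mCh mice over 18322 genes. Over the 80 tested members they correlated at 0.144 and 0.983. Genes were filtered by filterByExpr, scaled by TMM and tested with edgeR 4.0.16 (quasi-likelihood, robust) in R 4.3.3, with mouse as a block within mice and 4 groups without a block between reporters. Adjusted p values are Benjamini-Hochberg over all genes tested, with a threshold of 0.05. For Dll1 status they measure the spread of the difference between these mice. Between reporters the fit took the 2 libraries of a mouse as independent, which can overstate the precision. DESeq2 1.42.0 was an alternative. Log2 CPM used a prior count of 2. Differences between the libraries of 1 mouse are given on that scale. Copies were found with blastn 2.17.0, and adding all of them to their parents was chosen after seeing the data. The edgeR tests were also run on simulated data, drawn from a common mean profile without effects of mouse or line. That run could not check the tests under the spread between mice seen here, and its results are not reported here. Named genes were the members called over 4 mice, the 5 with the lowest p in each reporter, the 5 highest and lowest per length, fixed stalk, Mdm2-binding and paralog genes, leading genes of each list, the 5 pseudogenes with the most counts and the 5 nearest profiles, and the exceptions Rpl35a, Rps2, Rpl22 and Rps26 were named after their values were seen. Values of a few of these genes are not reported here. Members and lists were chosen with earlier results of these data known. Precision is limited by counting error, 3 counts being 0.024 to 0.105 CPM, and by 2 mice a line.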

Additional observations from a re-analysis of the deposited data

Results flagged for a closer look

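The median Dll1+ minus Dll1- difference of the large-subunit members set 1 mouse apart from the other 3. On the log2 CPM scale it was -0.25 and -0.24 in the PyMT-Dll1GFP mice, -0.19 in PyMT-Dll1mCh mouse 1 and 0.12 in PyMT-Dll1mCh mouse 2. The gap to the nearest mouse was 0.839 of the whole range, past the 95% critical value of Dixon's test for 4 values. Of 7 sets of values examined this was the only one past it, and chance puts about 1 in 20 past it. The same ratio was 0.720 for all members and 0.693 for the small subunit. The cause was not tested.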

How the results depend on the processing

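Counts of members called for Dll1 status changed with the processing, and those between the reporter lines were lost when a PyMT-Dll1GFP mouse was left out and kept within a range of 64 to 80 called under every other setting run. Over 4 mice (1 called) the count was 0 with TMM factors from other genes, 0 with all copies added, 0 without the paralogs, 2 with no filter and 25 with DESeq2, and 0 to 24 with 1 mouse left out. In PyMT-Dll1GFP mice (4 called) the count was 12 with library totals only, 24 with DESeq2, 18 with no filter and 2 with named pseudogenes added. It was 18 with these libraries fitted alone and up to 15 with 1 PyMT-Dll1mCh mouse left out. In the whole table these fits called 2055, 2053, 3001, 1749, 2337 and at most 2355 genes, against 1673 in the main fit. With no replicate block, so without the pairing by mouse, it was 0 in both, where 0 and 274 genes of the whole table were called. With no filter 1 member was called in PyMT-Dll1mCh mice, among 3637 genes, and 1 in the difference between reporters, among 1143 genes. The members' median of that difference was -0.05 to -0.36 with 1 mouse left out. Between the lines the count ranged from 0 to 77 in Dll1- (72 called) and from 0 to 77 in Dll1+ cells (75 called) with 1 mouse left out.

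Directions reversed for 4 named members. In Dll1- cells Rpl35a was at 0.45 with named pseudogenes or all copies added, Rpl10 at 0.43 and 0.40, and Rpl5 at 0.00 with DESeq2, 0.04 with no filter, 0.51 with all copies added and 0.05 without PyMT-Dll1mCh mouse 2 (-0.03 to 0.05 with 1 mouse left out). In Dll1+ cells Rpl35a was at 0.81 with either addition, and Rps27 at -1.59 without PyMT-Dll1mCh mouse 1 (-1.59 to 4.75 with 1 mouse left out). The cause was not tested, apart from the added counts themselves. Of the other values examined, nearly all of named genes, 269 kept direction and side of the threshold, 48 lost the call and 17 gained one. The 1 value left was the members' median level per length. It went from 315 to 209 CPM per kb with the union of exons as the length. Estimated counts of near-identical copies cannot be split with certainty, and 2 mice a line limit every comparison between lines.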
